A study of Mus musculus with 32 samples.

Results

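The genes of the integrated stress response and of amino acid supply were followed across a mouse tumor line and its derivative labelled resistant to anti-PD-1, that is, to antibody blockade of an inhibitory receptor on T cells. The set was a list of 39 symbols, of which 38 were found among the 22329 symbols of the deposited table, and Slc7a5 was not analysed here. By role, the 38 were 8 transcription factors and regulators, 3 other effectors of ATF4, 6 enzymes of serine, glycine and one-carbon metabolism, 5 other amino acid enzymes, 6 amino acid transporters and 10 tRNA synthetases. Libraries came from 12 tumors of MC38-resistant cells, 13 tumors of MC38 parental cells, 5 cultures of MC38-resistant cells and 2 cultures of MC38 parental cells. MC38 is labelled a colon adenocarcinoma line. Tumors were grown under the skin of C57BL6/J mice, no mouse or culture received treatment, and the age of the mice and how the resistant line was derived are not given in the sources used here. The labels do not say that the cultures were grown separately, so the spread behind p-values in culture may be technical.

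When cells run short of amino acids or misfold proteins in the endoplasmic reticulum, kinases phosphorylate the initiation factor eIF2, most translation slows, and the mRNA of the transcription factor ATF4 is translated better. ATF4 with its partners then raises genes that make, import and charge amino acids onto tRNA, and with CHOP, encoded by Ddit3, it raises effectors such as TRIB3 and CHAC1. Because ATF4 is controlled largely in translation, mRNA levels show the output of the pathway more directly than the state of ATF4 itself. Tumors use this program where blood supply leaves nutrients short.

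Levels are TPM, which scale each transcript by its length and each library to one total, so levels of different genes can be set side by side. Differences are on the log2(TPM + 1) scale, resistant minus parental or tumor minus culture, tested with limma over all genes that reached 1 TPM in enough libraries, and a gene is called where its Benjamini-Hochberg adjusted p is under 0.05. Every column summed to 1000000 TPM, the files give no read depth, and counting error cannot be stated. The log2 scale with 1 added understates differences of low genes. Genes at 1 TPM or more numbered 11573 to 12809 in resistant tumors, 11963 to 13308 in parental tumors, 10470 to 10799 in resistant cultures and 10654 to 10978 in parental cultures. The sample titles of tumors share one name series and those of cultures another, so setting and library series cannot be told apart. GC-rich transcripts stood high against GC-poor ones by over 0.5 on the log2 scale in 4 of the 13 parental tumors. These were replicates 2, 3, 7 and 8, and no resistant tumor was over 0.5. The measure is here called the GC index. It ran from -0.519 to 0.258 in resistant tumors (median -0.263) and from -0.267 to 0.809 in parental tumors (median -0.020). Index and line are thus confounded in part, also in fits that hold the index as a covariate. The 9 markers of colon epithelium summed to 1.63 to 7.79 TPM in resistant tumors, 3.18 to 12.7 TPM in parental tumors, 0.111 to 0.974 TPM in resistant cultures and 2.62 to 5.42 TPM in parental cultures, so the defining markers of the labelled cell type were near 0 in all groups. The 9 leukocyte and macrophage markers summed to 332 to 572 TPM in resistant tumors and 339.7 to 1222 TPM in parental tumors. The 6 fibroblast markers summed to 668 to 2045 TPM in resistant tumors and 197 to 1490.5 TPM in parental tumors. They also summed to 263 to 838 TPM in resistant cultures and 74.5 to 120 TPM in parental cultures, so their tumor sums do not measure fibroblasts alone. In bulk tumor RNA, fewer cells of a type and less RNA per cell cannot be told apart.

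ATF4 binds DNA together with C/EBP proteins at a composite site whose core is TGATGNAA, and the promoters of the 4 stress response genes that were lower in resistant tumors, Trib3, Atf3, Chac1 and Nupr1, are shown because each holds a match. The windows run from 250 bases before to 50 bases after the annotated start, 5′ to 3′ on the gene's strand, from RefSeq on GRCm38.p6, with the match in capitals.
Trib3, chr2:152344011-152344310, minus strand: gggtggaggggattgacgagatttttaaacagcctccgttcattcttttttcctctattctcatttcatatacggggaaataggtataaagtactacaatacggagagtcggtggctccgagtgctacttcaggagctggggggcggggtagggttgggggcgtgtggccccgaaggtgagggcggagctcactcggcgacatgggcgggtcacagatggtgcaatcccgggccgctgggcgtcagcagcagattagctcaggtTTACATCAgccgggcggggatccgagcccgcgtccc
Atf3, chr1:191183284-191183583, minus strand: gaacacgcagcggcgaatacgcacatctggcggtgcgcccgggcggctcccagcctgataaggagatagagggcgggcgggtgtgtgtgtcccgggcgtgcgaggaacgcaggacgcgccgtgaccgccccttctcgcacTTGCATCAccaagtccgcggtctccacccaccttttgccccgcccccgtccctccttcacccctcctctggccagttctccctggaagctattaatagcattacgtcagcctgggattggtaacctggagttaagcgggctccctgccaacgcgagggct
Chac1, chr2:119350992-119351291, plus strand: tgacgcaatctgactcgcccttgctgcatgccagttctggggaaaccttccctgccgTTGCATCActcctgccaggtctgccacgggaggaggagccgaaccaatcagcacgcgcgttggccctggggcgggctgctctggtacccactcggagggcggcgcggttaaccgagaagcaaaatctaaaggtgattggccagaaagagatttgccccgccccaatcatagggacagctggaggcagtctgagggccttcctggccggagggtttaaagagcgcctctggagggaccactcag
Nupr1, chr7:126625421-126625720, minus strand: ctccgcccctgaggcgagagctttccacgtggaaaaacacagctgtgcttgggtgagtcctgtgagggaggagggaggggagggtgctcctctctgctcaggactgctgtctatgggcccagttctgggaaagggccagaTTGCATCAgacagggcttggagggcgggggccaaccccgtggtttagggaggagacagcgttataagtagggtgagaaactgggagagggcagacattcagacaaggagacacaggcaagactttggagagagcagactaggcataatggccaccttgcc
With the first transcribed base as 1, the match begins at position 15 in Trib3, -110 in Atf3, -193 in Chac1 and -110 in Nupr1. In these 4 genes it lies in the reverse orientation, TTNCATCA. Either orientation of TGATGNAA occurred in the windows of 13 of the 32 members matched in the RefSeq table (40.6%) and of 1219 of all 27025 genes in it (4.51%). Members were listed by pathway, with ATF4 at its center, so the shares describe that list, and they were not tested. The other members with a match were Aars, Asns, Gars, Iars, Pycr1, Slc1a4, Slc7a11, Tars and Yars, with 2 matches each in Aars and Slc7a11. Aldh1l2, Cth, Slc1a5, Nars, Lars and Cars had no window in the table. Phgdh, Psph and Slc3a2, which were also lower in resistant tumors, had a window without a match, while Yars, which was higher there, held one. A match describes these letters and is not a measured binding site, and members such as Asns, Slc7a11 and Tars, which hold one, were not called between the tumors of the 2 lines.

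Between tumors, 4 stress response genes, 2 serine synthesis enzymes and 2 transporters were lower in the resistant line, and 3 tRNA synthetases were higher. Of the 37 members tested, 8 were lower in resistant tumors (Trib3, Atf3, Nupr1, Chac1, Phgdh, Psph, Slc3a2 and Slc1a5), 3 were higher (Nars, Yars and Cars), and 26 did not pass. Over all 12095 genes tested, 13.9% were called lower and 16.3% higher, so the share of members called higher was below that of all genes. The median difference was -0.12 over the members and 0.04 over all genes tested, and no member differed by 2-fold or more. No member separated the 2 groups of tumors without overlap, where 0.546% of genes did so downward and 0.496% upward. The number lower was 5 of 37 without the 4 parental tumors of high GC index, where 13.4% of all genes were called lower. It was 14 of 37 with Ptprc, which encodes the pan-leukocyte marker CD45, as a covariate, where 19.2% of all genes were. The 9 leukocyte and macrophage markers, Ptprc among them, all had negative differences between tumors, and 7 were called lower. Ptprc and line are thus confounded in part too, also in fits that hold Ptprc as a covariate.

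**Figure D1:**
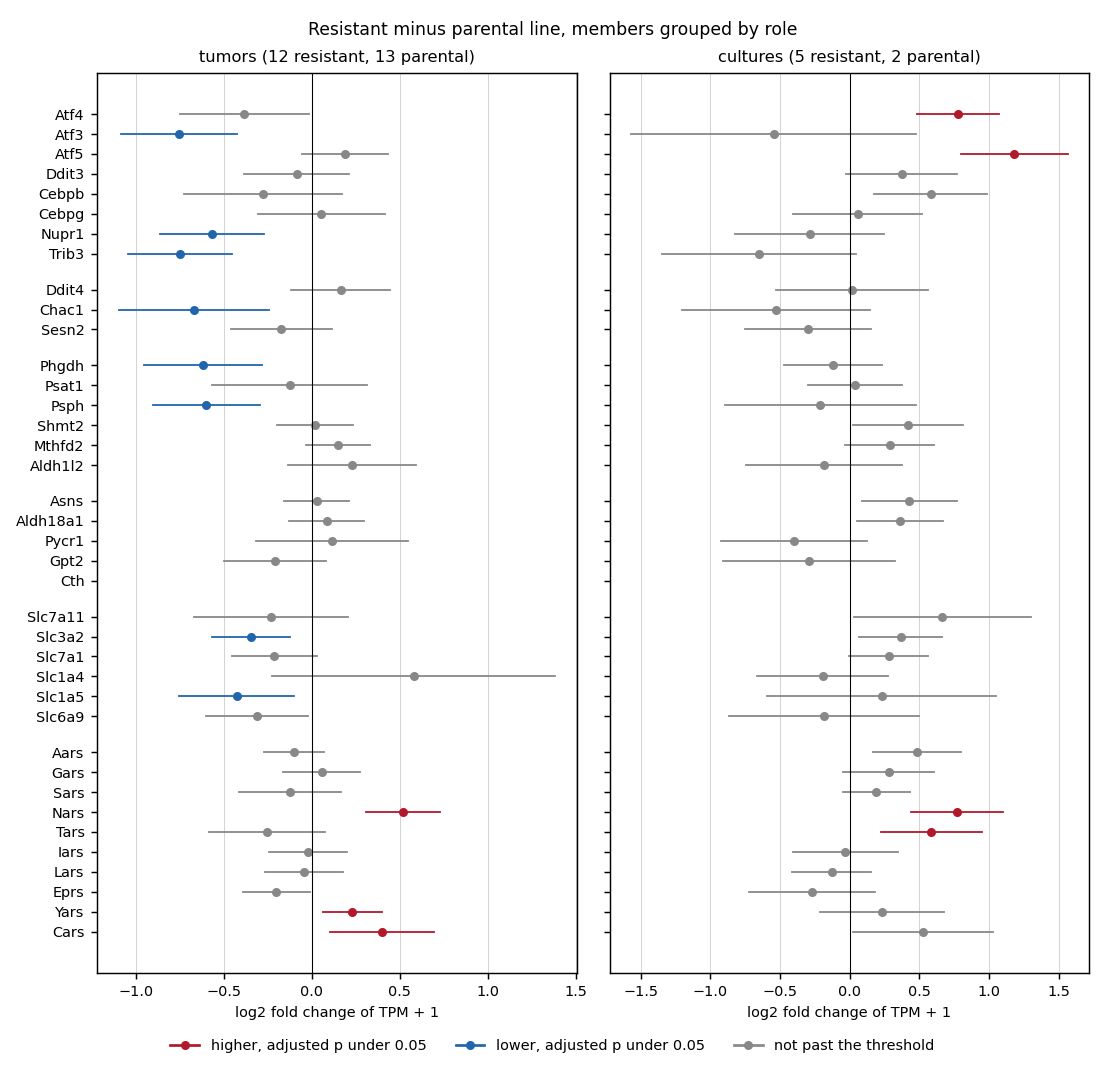
Difference between lines for each member, in tumors (left, 12 resistant and 13 parental) and in cultures (right, 5 resistant and 2 parental), as the log2 fold change of TPM + 1, resistant minus parental, with its 95% confidence interval; genes are grouped by role from transcription factors at the top to tRNA synthetases at the bottom, and Cth was not tested. In tumors 8 members lie below 0 and 3 above it past the threshold, while in culture 4 lie above it and none below.

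Atf4 itself, the central transcription factor, was not called between tumors. It had 319 TPM at the lowest, 487 TPM at the median and 636 TPM at the highest in resistant tumors, against 270.4 TPM at the lowest, 596 TPM at the median and 1222 TPM at the highest in parental tumors. All 12 resistant tumors lay below the parental mean, but the parental tumors ranged on both sides of them. The difference was -0.38 ± 0.18 (SE; adjusted p = 0.104), with a 95% confidence interval of -0.75 to -0.02. In the 4 parental tumors of high GC index Atf4 stood at 779 to 1222 TPM, and in the other 9 at 270.4 to 655 TPM. Those 9 averaged 507 TPM, which resistant tumors 2, 3, 11 and 12 exceeded. When the GC index was a covariate the difference was 0.03 (adjusted p = 0.850), and with Ptprc as a covariate it was -0.65 (adjusted p = 0.000562). Parental tumor 10, the lowest for 19 of the 38 members, was the lowest for Atf4 too, and without it Atf4 passed at an adjusted p of 0.0233, and Slc6a9 and Eprs passed too.

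Trib3, a pseudokinase induced by ATF4 and CHOP that feeds back on the pathway, showed the lowest adjusted p of the members in tumors. It had 66.7 TPM at the lowest, 115 TPM at the median and 195 TPM at the highest in resistant tumors, against 108 TPM at the lowest, 192 TPM at the median and 223 TPM at the highest in parental tumors. Of the 12 resistant tumors 11 were below the parental mean, and the groups overlapped through resistant tumor 5 and parental tumor 10. Trib3 averaged 113 ± 35.6 TPM in resistant tumors and 186 ± 33.6 TPM in parental tumors (SD), a difference of -0.75 ± 0.14 (SE; adjusted p = 0.000278). Unlike Atf4, it kept its size when the GC index was a covariate, at -0.72 (adjusted p = 0.00107).

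Atf3, a stress-induced repressor of the same family as ATF4, was a gene of low level. It had 1.81 TPM at the lowest, 3.26 TPM at the median and 6.42 TPM at the highest in resistant tumors, against 3.97 TPM at the lowest, 6.32 TPM at the median and 10.7 TPM at the highest in parental tumors. All 12 resistant tumors lay below the parental mean, and the difference was -0.75 ± 0.16 (SE; adjusted p = 0.000892). Nupr1, a small stress-induced chromatin protein, had 266 TPM at the lowest, 366 TPM at the median and 471 TPM at the highest in resistant tumors, against 339 TPM at the lowest, 551 TPM at the median and 953 TPM at the highest in parental tumors. Each of the 12 resistant tumors was below the parental mean here as well, with a difference of -0.57 ± 0.14 (SE; adjusted p = 0.00393). Its levels of 679.9 to 953 TPM in the 4 parental tumors of high GC index lay above those of the other 9, 339 to 584 TPM. Those 9 averaged 470 TPM, and resistant tumor 12 stood at 471 TPM. With the index as a covariate the Nupr1 difference was -0.25 (adjusted p = 0.0443).

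Chac1, an enzyme that degrades glutathione and is a late target of ATF4 and CHOP, had 10.3 TPM at the lowest, 24.5 TPM at the median and 40.3 TPM at the highest in resistant tumors, against 17.2 TPM at the lowest, 31.2 TPM at the median and 74.7 TPM at the highest in parental tumors. The groups overlapped, 11 of the 12 resistant tumors had less than the parental mean, and the difference was -0.67 ± 0.21 (SE; adjusted p = 0.0153). The 4 parental tumors of high GC index held the 4 highest levels, 47.9 to 74.7 TPM, against 17.2 to 36.3 TPM in the other 9. With the index as a covariate Chac1 was no longer called, at -0.20 (adjusted p = 0.237), nor without those 4 tumors, at -0.34 (adjusted p = 0.162). What part the GC index has in the difference was not tested beyond these fits.

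The remaining regulators were not called between tumors. Ddit3, which encodes CHOP, had 68.8 TPM at the lowest, 91.5 TPM at the median and 159 TPM at the highest in resistant tumors, against 65.2 TPM at the lowest, 104 TPM at the median and 191 TPM at the highest in parental tumors. These ranges nearly coincided, and the difference of -0.09 ± 0.15 (SE; adjusted p = 0.687) had a confidence interval of -0.39 to 0.21. Its sign turned in fits that allow for the GC index, and with Ptprc as a covariate it was -0.29 (adjusted p = 0.0426). Differences were 0.19 for Atf5, a relative of ATF4 that serves the mitochondrial stress response, -0.28 for Cebpb and 0.05 for Cebpg, both C/EBP partners of ATF4, 0.16 for Ddit4, an inhibitor of mTORC1, and -0.17 for Sesn2, a leucine sensor that also restrains mTORC1. Adjusted p-values of these 5 genes ran from 0.232 for Atf5 to 0.845 for Cebpg. In the fit that held the GC index Cebpg turned to -0.35 and was called lower (adjusted p = 0.0107), Ddit4 was called higher at 0.34 (adjusted p = 0.0494), and the sign of Sesn2 turned to 0.10 without a call. With Ptprc as a covariate Sesn2 was called lower at -0.36 (adjusted p = 0.0133).

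**Figure D2:**
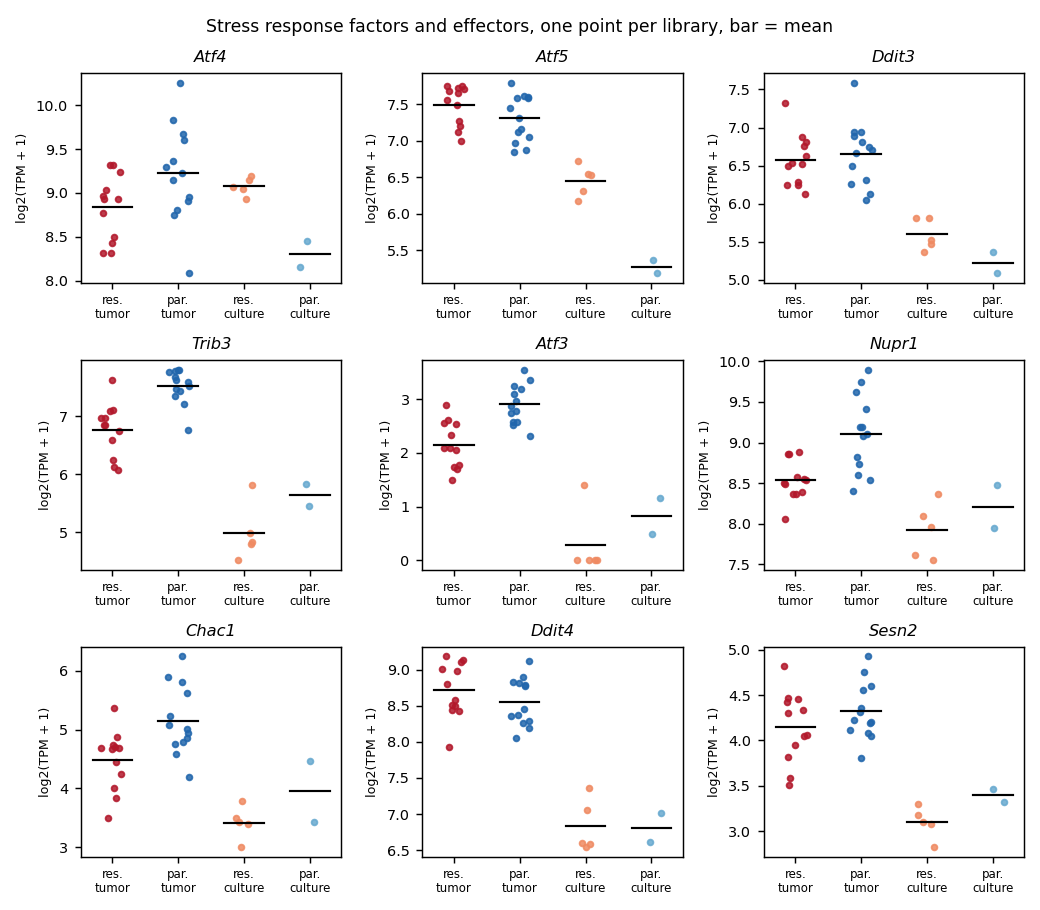
Levels of 9 transcription factors and effectors as log2(TPM + 1), one point per library and a bar at the group mean, for resistant tumors, parental tumors, resistant cultures and parental cultures from left to right. Trib3, Atf3, Nupr1 and Chac1 are lower in resistant than in parental tumors with overlap, and Trib3, Atf3, Ddit3, Ddit4, Atf5 and Sesn2 lie higher in every tumor than in any culture of the same line. The share of all genes that lie so was not counted.

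Of the serine pathway, the first and last steps were lower in resistant tumors and the middle one was not called. Phgdh, the first enzyme of serine synthesis, had 81.1 TPM at the lowest, 123 TPM at the median and 170.2 TPM at the highest in resistant tumors, against 102 TPM at the lowest, 174 TPM at the median and 327 TPM at the highest in parental tumors. All 12 resistant tumors lay below the parental mean, and the difference was -0.62 ± 0.16 (SE; adjusted p = 0.00536). Psph, the phosphatase that releases serine, had 24.2 TPM at the lowest, 47.0 TPM at the median and 68.9 TPM at the highest in resistant tumors, against 42.1 TPM at the lowest, 70.2 TPM at the median and 93.6 TPM at the highest in parental tumors. Again all 12 were below the parental mean, with a difference of -0.60 ± 0.15 (SE; adjusted p = 0.00292). Psat1, the aminotransferase between them, differed by -0.13 ± 0.21 (SE; adjusted p = 0.688).

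These 3 genes gave different values when the GC index was allowed for. Psph kept its size, at -0.58 (adjusted p = 0.00820), while Phgdh was -0.22 (adjusted p = 0.0444). Psat1 was then called lower, at -0.61 (adjusted p = 0.000898). Leaving out the 4 parental tumors of high index gave -0.38 for Phgdh (adjusted p = 0.0613), which ended its call. Levels of Phgdh were 228 to 327 TPM in those 4 tumors and 102 to 222 TPM in the other 9. The other 9 averaged 158 TPM, which resistant tumors 3, 11 and 12 exceeded at 169, 170 and 164 TPM.

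The mitochondrial one-carbon enzymes were not called between tumors. Shmt2, which splits serine into glycine and a one-carbon unit, differed by 0.02 ± 0.11 (SE; adjusted p = 0.914) and ranged from 321 to 615 TPM in resistant tumors and from 320.2 to 593 TPM in parental tumors. Mthfd2, which oxidizes the one-carbon unit, differed by 0.15, and Aldh1l2, which releases it as carbon dioxide, by 0.23 (adjusted p = 0.216 and 0.340).

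None of the other amino acid enzymes was called. Asns, the asparagine synthetase often used as a readout of ATF4, had 155 TPM at the lowest, 223 TPM at the median and 267 TPM at the highest in resistant tumors, against 163 TPM at the lowest, 221 TPM at the median and 244 TPM at the highest in parental tumors. The difference of 0.03 ± 0.09 (SE; adjusted p = 0.850) had a confidence interval of -0.16 to 0.21. Aldh18a1 and Pycr1, at the start and the end of proline synthesis, differed by 0.08 and 0.11, and Gpt2, the mitochondrial alanine aminotransferase, by -0.21. Cth, which makes cysteine from cystathionine, stayed below 1 TPM in the resistant tumors and reached at most 1.78 TPM in a parental tumor, so it was not tested there.

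Among transporters, Slc3a2 and Slc1a5 were lower in resistant tumors. Slc3a2, the heavy chain that carries several amino acid exchangers to the cell surface, had 296 TPM at the lowest, 355 TPM at the median and 433 TPM at the highest in resistant tumors, against 319 TPM at the lowest, 436 TPM at the median and 769 TPM at the highest in parental tumors. All 12 resistant tumors were below the parental mean, with a difference of -0.34 ± 0.11 (SE; adjusted p = 0.0169). In the 4 parental tumors of high GC index it stood at 537 to 769 TPM, and in the other 9 at 319 to 449 TPM. Those 9 averaged 401 TPM, which resistant tumors 11 and 12 exceeded at 433 and 423 TPM. The Slc3a2 call ended with the index as a covariate, at -0.12 (adjusted p = 0.229), and without the 4 tumors of high index, at -0.16 (adjusted p = 0.143).

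Slc1a5, a sodium-dependent importer of glutamine and other neutral amino acids, had 26.9 TPM at the lowest, 42.5 TPM at the median and 73.8 TPM at the highest in resistant tumors, against 33.5 TPM at the lowest, 53.1 TPM at the median and 87.7 TPM at the highest in parental tumors. The groups overlapped widely although 11 of 12 resistant tumors were below the parental mean. Its difference of -0.43 ± 0.16 (SE; adjusted p = 0.0418) stayed past the threshold in 11 of the 25 fits that each left out 1 tumor, and without the 4 parental tumors of high GC index it was -0.44 (adjusted p = 0.0638). Slc7a11, the cystine importer, differed by -0.23 ± 0.21 (SE; adjusted p = 0.433), and once the GC index was a covariate by -0.65 (adjusted p = 0.00322). Slc7a1, for cationic amino acids, differed by -0.21, Slc6a9, for glycine, by -0.31, and Slc1a4, for alanine, serine and cysteine, by 0.58, with adjusted p-values of 0.177, 0.0953 and 0.271. Slc1a4 ranged widely, from 3.04 to 23.6 TPM in resistant tumors and from 0.695 to 20.9 TPM in parental tumors. Its direction depended on the fit: it was -0.40 when the fit held the GC index (adjusted p = 0.0887), -0.17 without the parental tumors of high index (adjusted p = 0.690), and 1.07, called higher, with Ptprc as a covariate (adjusted p = 0.0145). Slc6a9 was called lower with Ptprc as a covariate, at -0.43 (adjusted p = 0.0161).

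The tRNA synthetases, which join each amino acid to its tRNA, gave the 3 members that were higher. Nars, for asparagine, had 231 TPM at the lowest, 279.6 TPM at the median and 323 TPM at the highest in resistant tumors, against 115 TPM at the lowest, 207 TPM at the median and 269.5 TPM at the highest in parental tumors. All 12 resistant tumors were above the parental mean, and the difference was 0.52 ± 0.10 (SE; adjusted p = 0.000414). Unlike Chac1 or Slc3a2, Nars was lower in the 4 parental tumors of high GC index, at 115 to 169.6 TPM, than in the other 9, at 179 to 269.5 TPM, and its call held with and without them. The Nars difference was 0.31 with the index as a covariate (adjusted p = 0.00233) and 0.35 without those tumors (adjusted p = 0.00173).

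Yars, for tyrosine, had 68.4 TPM at the lowest, 78.0 TPM at the median and 91.8 TPM at the highest in resistant tumors, against 47.8 TPM at the lowest, 67.7 TPM at the median and 84.2 TPM at the highest in parental tumors. All 12 were above the parental mean, with a difference of 0.23 ± 0.08 (SE; adjusted p = 0.0351). Cars, for cysteine, had 143 TPM at the lowest, 219 TPM at the median and 362 TPM at the highest in resistant tumors, against 112 TPM at the lowest, 161 TPM at the median and 248 TPM at the highest in parental tumors, and 9 of 12 were above the parental mean. Its difference was 0.40 ± 0.14 (SE; adjusted p = 0.0371), and allowing for the GC index it was 0.21 (adjusted p = 0.268). Both calls were close to the threshold: of the 25 fits that left out 1 tumor, Yars passed in 17 and Cars in 14. The other 7 synthetases, Aars, Gars, Sars, Tars, Iars, Lars and Eprs, had differences from -0.25 for Tars to 0.06 for Gars and were not called. With Ptprc as a covariate Sars and Tars were called lower, at -0.32 and -0.45 (adjusted p = 0.0244 and 0.0127), while in the fit that held the GC index both turned in sign, to 0.19 and 0.08, without a call.

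**Figure D3:**
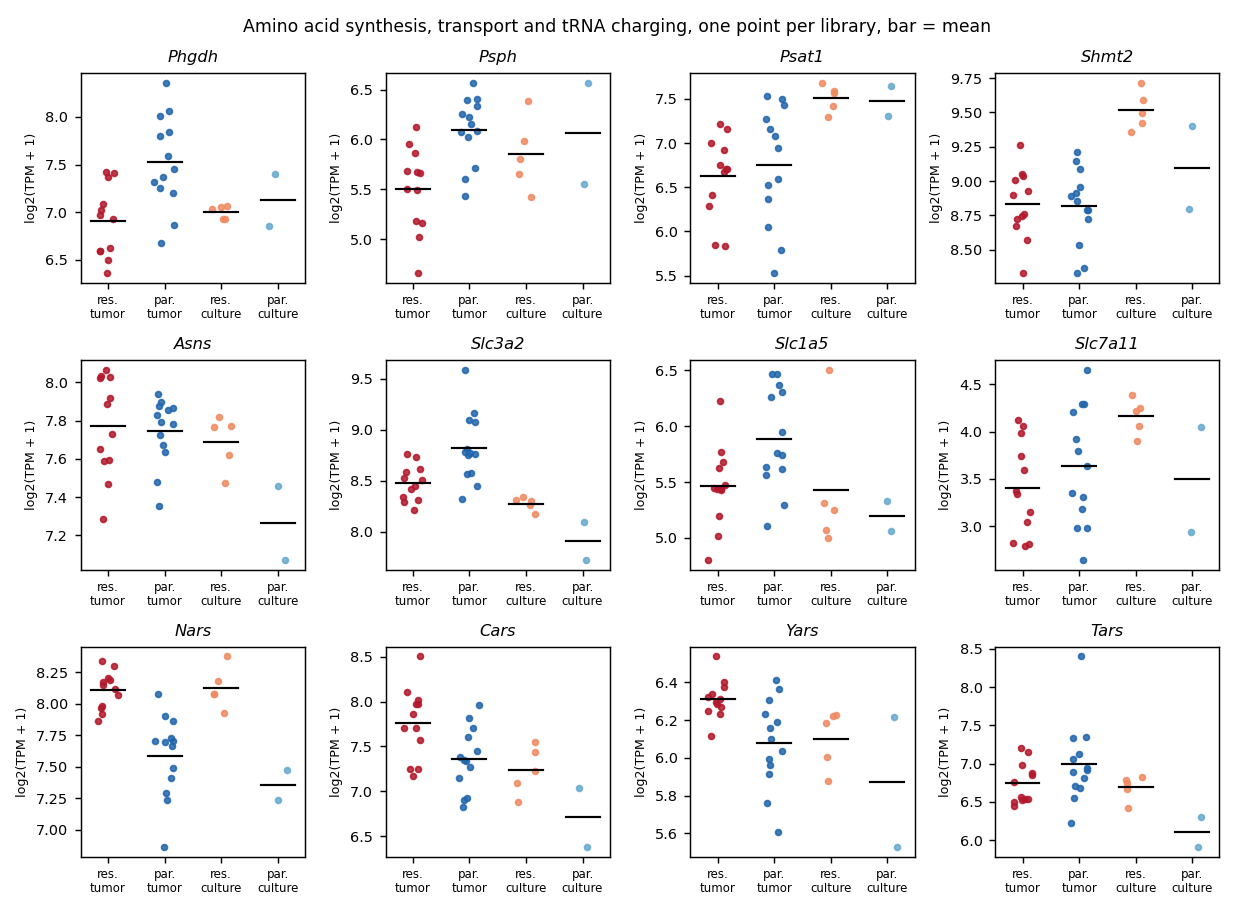
Levels of 12 genes of amino acid synthesis, transport and tRNA charging as log2(TPM + 1), one point per library and a bar at the group mean, for resistant tumors, parental tumors, resistant cultures and parental cultures from left to right. Phgdh, Psph, Slc3a2 and Slc1a5 sit lower, and Nars, Cars and Yars higher, in resistant than in parental tumors, and Psat1 and Shmt2 sit lower in every resistant tumor than in any resistant culture. How many of all genes do the latter was not counted.

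**Figure D4:**
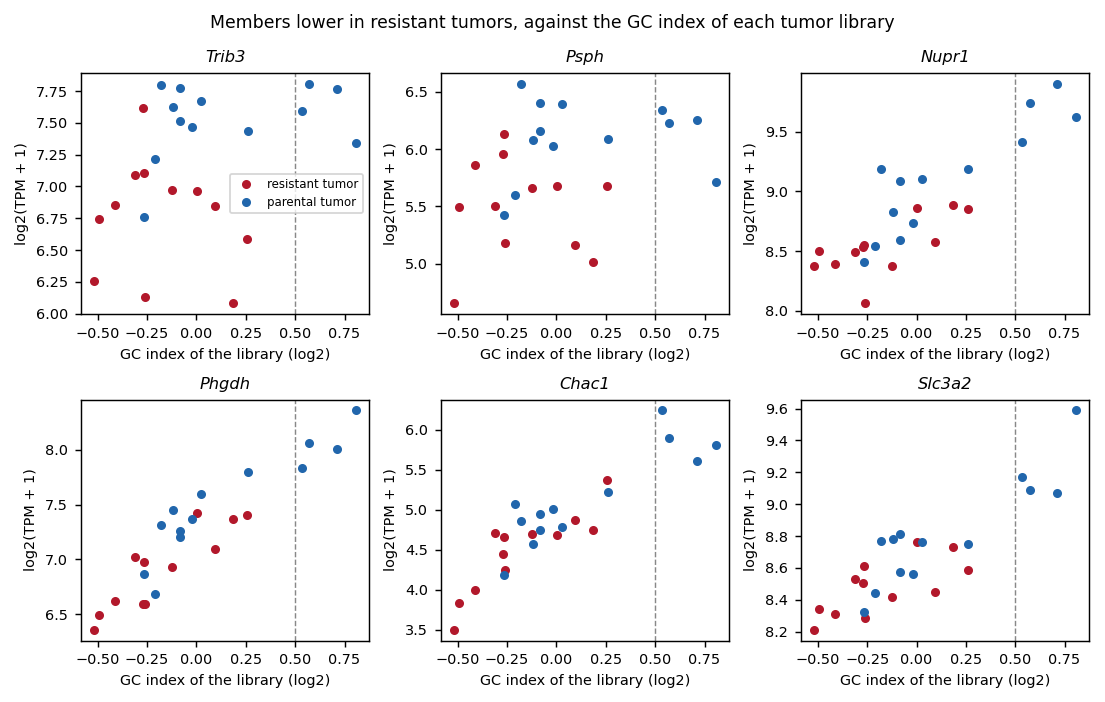
Levels of 6 members that were lower in resistant tumors, as log2(TPM + 1), against the GC index of each tumor library on the log2 scale, with resistant and parental tumors as points in 2 colors and a dashed line at 0.5. The 4 parental tumors right of the line hold the 4 highest levels of Chac1, Slc3a2, Nupr1 and Phgdh but not of Trib3 or Psph.

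In culture, where the leukocyte and macrophage markers summed to 6.004 to 8.93 TPM in resistant cultures and 12.0 to 31.9 TPM in parental cultures, the lines differed in other members. Of the 37 members tested, 4 were higher in resistant cultures (Atf5, Atf4, Nars and Tars) and 0 were lower, against 6.15% of all 11201 genes tested called higher and 8.04% called lower. The median difference was 0.19 over the members and -0.01 over all genes tested. With 2 parental cultures the comparison rests on few samples.

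Atf5 had 78.1, 92.4, 105, 71.2 and 91.4 TPM in the 5 resistant cultures, against 35.4 and 40.2 TPM in the 2 parental cultures. Every resistant culture was above both parental ones, and the difference was 1.18 ± 0.17 (SE; adjusted p = 0.00285). Atf4 had 487, 526, 587, 537 and 564 TPM in resistant cultures, against 349 and 284 TPM in parental cultures. These groups did not overlap either, with a difference of 0.78 ± 0.13 (SE; adjusted p = 0.00546), whose sign is opposite to the uncalled difference in tumors. Uncalled members separated the 5 cultures from the 2 as well, among them Asns, Aars and Sars upward and Sesn2 and Eprs downward. The share of all genes that do so was not counted.

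Nars had 242, 289, 268, 269.6 and 331 TPM in resistant cultures, against 177 and 150.1 TPM in parental cultures. It was thus higher in the resistant line in both settings, with a culture difference of 0.77 ± 0.15 (SE; adjusted p = 0.00948). Tars, for threonine, had 84.9, 101, 112, 109 and 107 TPM in resistant cultures, against 77.8 and 59.1 TPM in parental cultures, a difference of 0.58 ± 0.16 (SE; adjusted p = 0.0416). Leaving out 1 culture ended the Tars call in 6 of 7 fits, the exception being the one without resistant culture 1, and leaving out parental culture 2 ended those of Atf4 and Nars. Without resistant culture 1 Trib3 was called lower, at an adjusted p of 0.0162, and Aars higher, and without resistant culture 2 Cebpb was called higher. A fit without either parental culture has 1 parental culture, whose spread is assumed to be that of the resistant cultures, so its lost calls, and the call of Slc7a11 gained without parental culture 2, rest on that assumption.

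The members lower in resistant tumors were not called in culture. Trib3 had 55.4, 30.7, 26.8, 27.5 and 21.9 TPM in resistant cultures, against 42.5 and 56.2 TPM in parental cultures. Resistant culture 1 lay within the parental values and the other 4 below them, and the difference was -0.65 ± 0.31 (SE; adjusted p = 0.195). Ddit3 had 55.5, 44.9, 40.1, 55.4 and 43.3 TPM in resistant cultures, against 33.0 and 40.1 TPM in parental cultures, a difference of 0.37 ± 0.18 (SE; adjusted p = 0.194) between groups whose nearest values both round to 40.1 TPM. Atf3 was listed at 0 in 4 of the 5 resistant cultures, and it had 0.396 and 1.24 TPM in the parental cultures. Differences were -0.53 for Chac1, -0.29 for Nupr1, -0.12 for Phgdh, -0.21 for Psph, 0.37 for Slc3a2 and 0.23 for Slc1a5, with adjusted p-values from 0.0965 for Slc3a2 to 0.719 for Slc1a5.

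Whether the line difference itself changed between settings was tested over all 32 libraries. Of 38 members, 1 was called, Atf5, and 0 in the higher direction, against 1.61% of all 15061 genes tested called lower and 2.4% called higher. For Atf5 the resistant minus parental difference was smaller in tumors, by -0.99 ± 0.26 (SE; adjusted p = 0.0204) when culture is subtracted, with 127 to 216 TPM in resistant tumors and 114 to 222 TPM in parental tumors. In other words, the resistant line's excess of Atf5 in culture was larger than that in tumors. The call was lost when either parental culture was left out, where the other was assumed to vary like the rest of the libraries. Next by adjusted p were Aars at -0.58 ± 0.18 (SE; adjusted p = 0.0700), Atf4 at -1.16 ± 0.38 (SE; adjusted p = 0.0828) and Slc3a2 at -0.71 ± 0.24 (SE; adjusted p = 0.0869), which did not pass. All 3 passed when parental tumor 10 was left out.

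Set against culture, tumors of both lines carried more of the stress effectors. These comparisons share no library with each other but share their tumors with the comparison between lines. In the resistant line, 12 of 37 members were higher in tumors and 3 lower, against 35.3% of all 12312 genes tested called higher and 15% called lower, so neither share of members was above that of all genes. In the parental line, 10 of 38 were higher and 0 lower, against 16.1% of all 14348 genes tested called higher and 5.99% called lower. Median differences were 0.17 over the members and 0.18 over all genes in the resistant line, and 0.51 over the members and 0.21 over all genes in the parental line. Quantile normalization moved the medians of all genes to -0.13 in the resistant and -0.09 in the parental line, so small differences between settings depend on the scaling. All 9 leukocyte and macrophage markers, all 5 endothelial markers and 4 of 6 fibroblast markers were also called higher in tumors of each line, and which cells of a tumor carry the difference was not tested.

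**Figure D5:**
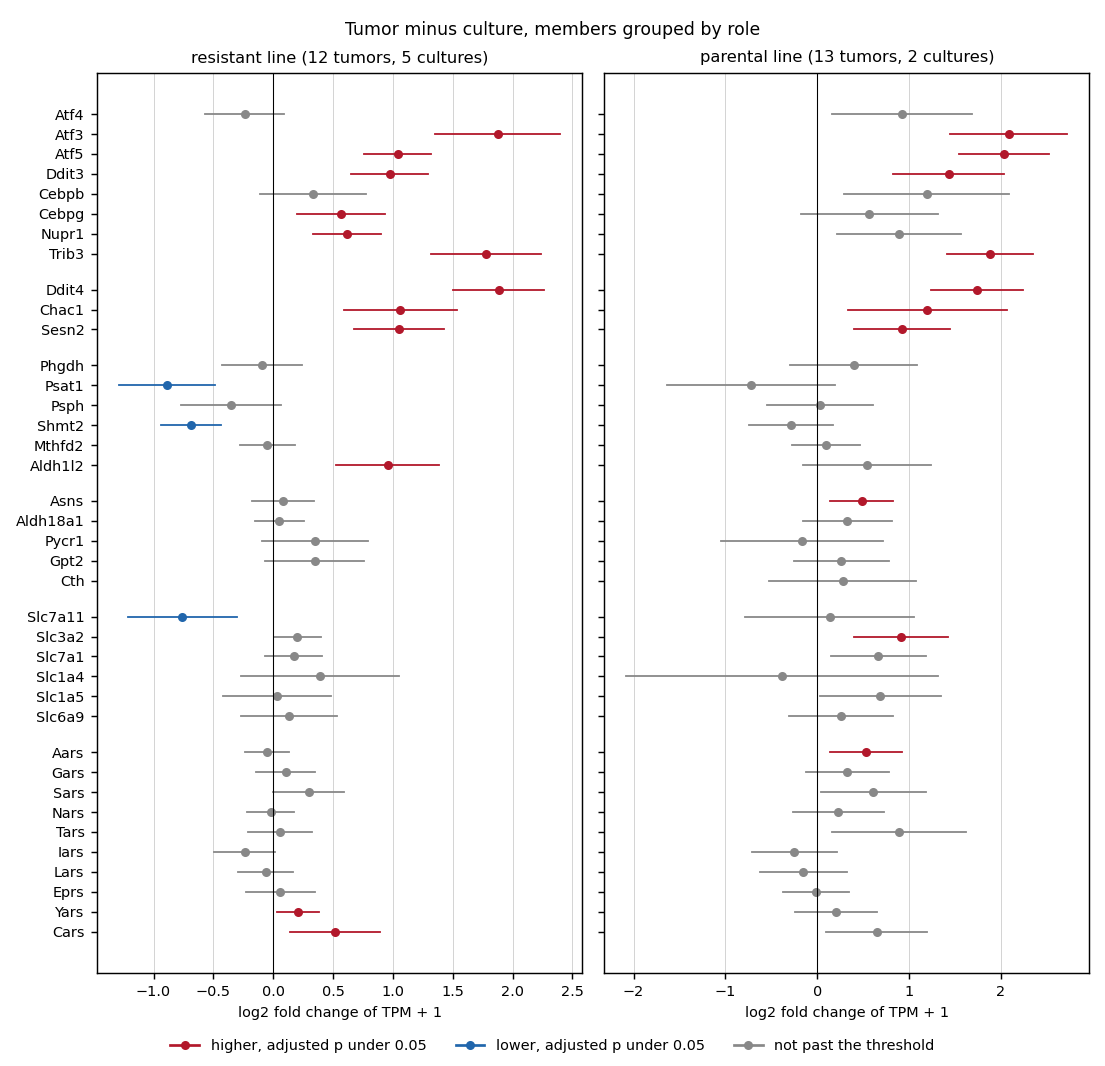
Difference between tumors and cultures for each member, in the resistant line (left, 12 tumors and 5 cultures) and in the parental line (right, 13 tumors and 2 cultures), as the log2 fold change of TPM + 1, tumor minus culture, with its 95% confidence interval; genes are grouped by role as before, and Cth was not tested in the resistant line. Ddit4, Atf3 and Trib3 lie farthest to the right in the resistant panel and, with Atf5, in the parental panel, and Psat1, Slc7a11 and Shmt2 lie below 0 past the threshold in the resistant line.

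Ddit4 had 243 TPM at the lowest, 413 TPM at the median and 579 TPM at the highest in resistant tumors, against 164, 132, 94.9, 92.3 and 95.8 TPM in resistant cultures. No tumor overlapped the cultures, and the difference was 1.89 ± 0.18 (SE; adjusted p = 3.01e-08). How many of all genes separate tumors from cultures without overlap, in either direction, was not counted. In the parental line Ddit4 had 266 TPM at the lowest, 349 TPM at the median and 554 TPM at the highest in tumors, against 96.6 and 128 TPM in cultures, again without overlap, with a difference of 1.74 ± 0.24 (SE; adjusted p = 2.77e-05).

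Trib3 was higher in tumors by 1.78 ± 0.22 (SE; adjusted p = 1.08e-06) in the resistant line and by 1.88 ± 0.22 (SE; adjusted p = 4.70e-06) in the parental line, and every tumor lay above every culture of its line. Atf3 was higher by 1.88 ± 0.25 (SE; adjusted p = 3.05e-06) in the resistant and 2.09 ± 0.31 (SE; adjusted p = 5.36e-05) in the parental line. Atf5 was higher by 1.04 ± 0.13 (SE; adjusted p = 1.83e-06) in the resistant and 2.03 ± 0.23 (SE; adjusted p = 3.25e-06) in the parental line, the one member for which this step differed between lines past the threshold. Ddit3 was higher by 0.97 in the resistant and 1.43 in the parental line, Sesn2 by 1.05 and 0.93, and Chac1 by 1.06 and 1.2. These 7 of the 37 members tested in both lines (18.9%) were called higher in both, a share near that of all 12273 genes tested in both, of which 15.7% were. In both lines 0 members were called lower, against 4.06% of those genes. In the parental line the call of Ddit3 ended without parental culture 1, that of Sesn2 without either parental culture, and that of Chac1 also without any of 5 single tumors.

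The remaining calls between settings fell in both directions. In resistant tumors Aldh1l2 was higher than in culture by 0.96 ± 0.21 (SE; adjusted p = 0.000660), Nupr1 by 0.62 ± 0.14 (SE; adjusted p = 0.000924), Cebpg by 0.57 ± 0.18 (SE; adjusted p = 0.0110), Cars by 0.52 ± 0.18 (SE; adjusted p = 0.0211) and Yars by 0.21 ± 0.09 (SE; adjusted p = 0.0491). The Yars call ended in 13 of the 17 fits without 1 library, and that of Cars without resistant culture 2 or 4. Lower in resistant tumors were Psat1 at -0.89 ± 0.19 (SE; adjusted p = 0.000700), Slc7a11 at -0.76 ± 0.22 (SE; adjusted p = 0.00650) and Shmt2 at -0.68 ± 0.12 (SE; adjusted p = 8.57e-05). Shmt2 had 321 TPM at the lowest, 455 TPM at the median and 615 TPM at the highest in resistant tumors, against 769, 840.3, 719.8, 685 and 654 TPM in resistant cultures, and no tumor reached the lowest culture. In parental tumors Slc3a2 was higher than in culture by 0.91 ± 0.24 (SE; adjusted p = 0.0108), Aars, for alanine, by 0.53 ± 0.19 (SE; adjusted p = 0.0491) and Asns by 0.48 ± 0.17 (SE; adjusted p = 0.0437). The Aars and Asns calls were each lost when either parental culture was left out and in 9 of the 13 fits that left out 1 tumor, and that of Slc3a2 was lost without parental culture 2. Atf4 was not called in either line, at -0.24 ± 0.16 (SE; adjusted p = 0.224) in the resistant and 0.92 ± 0.36 (SE; adjusted p = 0.0776) in the parental line.

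By mean level, Atf4 was the most abundant member in tumors of both lines, at 471 ± 117 TPM in resistant tumors and 638 ± 248 TPM in parental tumors, ahead of Shmt2, at 461 ± 78.8 TPM in resistant tumors. The spread of Atf4 and Shmt2 overlapped in resistant tumors. In culture Shmt2 came first, at 734 ± 73.5 TPM in resistant cultures and 559 ± 164 TPM in parental cultures. Trib3 ranked 18th of the members in resistant tumors and 11th in parental tumors by mean TPM, and 29th in resistant cultures and 24th in parental cultures.

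Within each line, Trib3 was set against 8 other members and 2 leukocyte markers across tumors, 20 relations in all. One passed after Benjamini-Hochberg adjustment over the 20, that with Asns in the 12 resistant tumors. Pearson's r was 0.83 (permutation p = 0.00058, adjusted p = 0.0116) and Spearman's rho 0.84 (permutation p = 0.00097, adjusted p = 0.0194). Without the 2 tumors farthest from the Trib3 median r was 0.82 (permutation test, adjusted p = 0.0498). In the 13 parental tumors r was 0.68 and rho 0.59 (permutation p = 0.0139 and 0.0393, adjusted p = 0.139 and 0.384), and r was 0.42 without the 2 farthest tumors. For the same pair r was 0.77 in the 9 parental tumors of lower GC index (permutation test, adjusted p = 0.0737). Trib3 with Atf4 had an r of 0.18 in resistant tumors (permutation p = 0.585, adjusted p = 0.78), and without its 2 farthest tumors an r of 0.62 (adjusted p = 0.397). In parental tumors the same pair had an r of 0.57 (permutation p = 0.0471, adjusted p = 0.246) and a rho of 0.44 (permutation p = 0.134, adjusted p = 0.384). This relation did not hold without its 2 farthest tumors, with an r of -0.074 (adjusted p = 0.948), while in the 9 parental tumors of lower GC index r was 0.87 (permutation test, adjusted p = 0.0685). Trib3 with Ptprc had an r of 0.11 in resistant and -0.41 in parental tumors (permutation test, adjusted p = 0.805 and 0.353). In the 9 parental tumors of lower GC index that r was -0.77 (permutation test, adjusted p = 0.0685). Trib3 with Adgre1, the other leukocyte marker, had an r of 0.41 in resistant and -0.20 in parental tumors, and -0.0038 in those 9. All libraries share the fixed total of TPM.

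Further genes of the pathway, not among the members, were counted from lists by function. Unless another share is given, each count between tumors is to be read against 16.3% of all genes called higher and 13.9% called lower. Of 14 genes for eIF2, its exchange factor, kinases and phosphatase subunits, 5 were higher and 1 lower in resistant tumors. Once the GC index was a covariate 1 was higher and 1 lower, against 17.9% and 15% of all genes. Leaving out the 4 parental tumors of high index gave 2 higher and 0 lower, against 14.5% and 13.4%. Ptprc as a covariate gave 5 higher and 2 lower, against 25.2% and 19.2%. Eif2ak3, the kinase PERK of the endoplasmic reticulum, differed by 0.72 ± 0.21 (SE; adjusted p = 0.0104), Eif2ak2, the kinase PKR activated by double-stranded RNA, by 0.37 ± 0.13 (SE; adjusted p = 0.0331), Eif2s3x, the gamma subunit of eIF2, by 0.78 ± 0.21 (SE; adjusted p = 0.00521) and Ppp1r15b, a phosphatase subunit that reverses the phosphorylation, by 0.33 ± 0.11 (SE; adjusted p = 0.0197). Of the genes just named, Eif2ak3 alone stayed called when the fit held the GC index. Eif2s3x alone did so when the parental tumors of high index were dropped. Eif2ak2 and Ppp1r15b thus lost their calls in both of these fits, while the Ptprc fit called all of the named genes. Of 11 further ATF4 targets tested, 4 were lower and 1 higher in resistant tumors. With the GC index as a covariate 5 were lower and 2 higher, against 15% and 17.9% of all genes. Without the 4 parental tumors of high index 6 were lower and 1 higher, against 13.4% and 14.5%. With Ptprc as a covariate 5 were lower and 2 higher, against 19.2% and 25.2%. Vldlr, a lipoprotein receptor, had 14.4 to 36.0 TPM in resistant tumors and 26.2 to 124 TPM in parental tumors, a difference of -1.60 ± 0.18 (SE; adjusted p = 3.33e-07). Gadd45a, a growth arrest gene, differed by -0.80 ± 0.18 (SE; adjusted p = 0.00103), Eif4ebp1, a repressor of cap-dependent translation, by -0.49 ± 0.10 (SE; adjusted p = 0.000402), and Bcat1, the cytosolic branched-chain aminotransferase, by 0.51 ± 0.12 (SE; adjusted p = 0.00168).

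Of 10 further amino acid enzymes tested, 7 were lower and 0 higher in resistant tumors, against 13.9% of all genes called lower and 16.3% higher. In the fit that held the GC index, as in that without the 4 parental tumors of high index, 2 of the 10 were lower, Ass1 and Pycrl, against 15% and 13.4% of all genes. With Ptprc as a covariate 8 of the 10 were lower and 0 higher, against 19.2% and 25.2% of all genes. These fits of the lists were added after seeing the data. Ass1, which makes argininosuccinate on the way to arginine, had 4.31 to 9.67 TPM in resistant tumors and 6.69 to 20.2 TPM in parental tumors, a difference of -0.89 ± 0.15 (SE; adjusted p = 8.31e-05). In culture it differed by -3.15 ± 0.38 (SE; adjusted p = 0.00126), with 0 to 1.30 TPM in resistant cultures and 8.56 to 10.8 TPM in parental cultures. Glud1, the glutamate dehydrogenase, differed in tumors by -0.42 ± 0.12 (SE; adjusted p = 0.00883), Asl, the next step after ASS1, by -0.32 ± 0.10 (SE; adjusted p = 0.0149), and Got2, the mitochondrial aspartate aminotransferase, by -0.32 ± 0.09 (SE; adjusted p = 0.00629). All 4 were lower in resistant tumors. Of them Ass1 kept its call in both fits that allow for the GC index, and all 4 kept theirs with Ptprc as a covariate.

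Of 11 further transporters tested in tumors, 2 were higher and 1 lower in the resistant line. Slc7a8, a light chain that pairs with the Slc3a2 product, had 5.89 to 11.7 TPM in resistant tumors and 7.57 to 30.1 TPM in parental tumors, a difference of -0.85 ± 0.15 (SE; adjusted p = 9.15e-05), and its cultures of both lines stayed below 1 TPM. Slc43a2, a transporter of large neutral amino acids, differed by 0.61 ± 0.18 (SE; adjusted p = 0.0106) and Slc36a1, a lysosomal exporter, by 0.40 ± 0.12 (SE; adjusted p = 0.0159). Folate and glycine genes gave 1 higher, Mthfd1 at 0.52, and 1 lower, Gcsh at -0.36, of 8. Further cytosolic synthetases and partners gave 1 higher, Mars at 0.26, and 1 lower, Wars at -0.30, of 13. Mitochondrial synthetases gave 4 higher and 1 lower of 17. Of 11 chaperones of the endoplasmic reticulum, which the unfolded protein response raises, 2 were higher, Pdia4 at 0.41 and Manf at 0.29. Another 2 were lower, Sdf2l1 at -0.55 and Hyou1 at -0.25. Both fits that allow for the GC index also called Slc7a8, Slc43a2, Pdia4 and Hyou1. Neither of them called Slc36a1, Mthfd1, Gcsh, Wars, Manf or Sdf2l1. Mars was called with the index as a covariate and not without the 4 parental tumors of high index. With Ptprc as a covariate each of these genes was called. In culture, where 6.15% of all genes tested were called higher and 8.04% lower, 2 of 11 further ATF4 targets were higher in the resistant line, Jdp2 at 1.44 and Gdf15 at 0.79, and 2 were lower, Vldlr at -2.20 and Stc2 at -0.96. Map1lc3b of these lists was not analysed here.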

How the data were processed

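Poly(A) RNA of 32 libraries was sequenced after Qiagen extraction with DNase and KAPA RNA HyperPrep preparation, per the labels. The authors deposited 1 table of TPM by gene symbol, and the quantifier and annotation are not given in the sources used here. STAR and GRCh38, a human build, are named per the submitters' processing notes, while 98.4% of the symbols are in GENCODE mouse release M21. Depth is unknown, so precision rests on the spread between libraries.

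Members and lists were chosen with earlier results of these data known. From the list of further folate and glycine genes, 1 gene is not reported here and is not in its counts. Tests used limma 3.58.1 (R 4.3.3) with an intensity trend on log2(TPM + 1), 1 fit per comparison with the libraries of that comparison. They were two-sided, and p-values were adjusted by Benjamini-Hochberg over every gene tested, with 0.05 as the threshold. Tested genes had 1 TPM or more in as many libraries as the smaller group has. The change of the line difference between settings was fitted to all 32 libraries. Replicates are numbered by order of deposition, which pairs nothing. For the GC index, genes averaging at least 5 TPM in tumors were centered on their tumor mean in log2, and the median of 1274 genes with a GC fraction under 0.42 was subtracted from that of 2146 genes with one over 0.55. Members with values written out were Atf4, Ddit3 and Trib3, and those with the lowest adjusted p in each role list and comparison, with up to 4 further genes per list. Motifs, relations (100000 resamples) and figures used Python 3.11.15, numpy 2.4.6, pandas 2.3.3, scipy 1.17.1 and matplotlib 3.10.9. As alternatives, the pseudocount was set to 0.1, the filter was dropped or set at 5 TPM, values were scaled by median of ratios or quantile normalized, arrays were weighted, a rank-sum test was run, the GC index or Ptprc entered as a covariate, and libraries were left out. The fits were tested on simulated data.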

Additional observations from a re-analysis of the deposited data

Results flagged for a closer look

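In the 5 resistant cultures, 7 of 37 members held a library far from the other 4 by Dixon's criterion, where chance flags about 1 group in 20. Resistant culture 1 was the high one for Trib3 at 55.4 TPM, for Gpt2 at 122 TPM, for Slc1a5 at 89.95 TPM and for Atf3 at 1.63 TPM, with Atf3 listed at 0 in the other 4. The same culture was the highest of the group for 16 of 37 members. Resistant culture 2 was the low one for Iars at 160.2 TPM and for Eprs at 85.5 TPM, and resistant culture 4 was the high one for Sars at 285 TPM.

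In tumors the resistant minus parental difference of Atf5 was below that in culture, with -0.99 as tumors minus culture on the log2 scale in the test of the difference itself (limma, adjusted p = 0.0204).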

How the results depend on the processing

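Over 132 further fits of the 5 comparisons, which gave 4938 differences of members, 120 calls were lost, 71 were gained, and 170 differences turned in sign, of which 0 had been called as reported. Between tumors, 11 of 37 members turned in sign when the GC index was a covariate, 7 without the tumors of high index, 4 with array weights, 2 with median-of-ratios scaling and 2 with Ptprc as a covariate. In tumors the members called higher numbered 1 with median-of-ratios scaling, and those called lower numbered 5 without the parental tumors of GC index over 0.5 and 14 with Ptprc as a covariate. The uncalled Ddit3 difference between tumors turned to 0.034 with array weights, 0.13 when the GC index was a covariate and 0.085 without the tumors of high index, and the uncalled Atf4 difference turned to 0.030 when the GC index was a covariate. In the parental line, members higher in tumors than in culture numbered 18 with array weights and 17 without the tumors of high index, an alternative chosen after seeing the data. Calls over all genes, both directions together, numbered 4738 and 4343 in these fits, against 2310 higher and 859 lower as reported. Eprs was called lower between tumors with array weights and by the rank-sum test. Members for which the line difference was lower in tumors than in culture numbered 5 with array weights. There too, calls over all genes in both directions were more numerous than as reported. The causes were not tested.

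Leaving out each library in turn, members higher in resistant tumors ranged from 1 to 3 and those lower from 7 to 11. In culture, members higher ranged from 2 to 5 and members lower from 0 to 1. The parental tumors had 5 to 14 members higher than in culture, and members with a changed line difference ranged from 0 to 4. The Trib3, Atf3, Nupr1, Psph, Phgdh, Chac1, Slc3a2 and Nars calls between tumors held in all 25 such fits. With a filter at 5 TPM Atf3 was not tested. No paired analysis was possible because the labels give no replicate number shared between groups. Depth is unknown, so no limit from counting can be set, and 2 parental cultures limit every comparison that uses them. A fit without 1 of them assumes that the other varies like the remaining libraries.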
